A study of Mus musculus with 2 samples.

Results

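The 10 genes described here encode ATF4 and CHOP, the transcription factors of the integrated stress response, with their relatives and dimer partners of the basic leucine zipper (bZIP) class and the genes through which the response limits itself. They are Atf4, Atf3, Atf5, Ddit3 (which encodes CHOP), Cebpb, Cebpg, Trib3, Ppp1r15a, Chac1 and Nupr1. The set was selected on the TPM values of these 2 libraries, with the difference between them already known, so its ratios are a description and carry no test. All 10 were found by symbol among 51912 rows with Ensembl gene identifiers, and all 10 were detected, meaning a mean TPM of at least 1 over both libraries, as were 11258 genes in all. Messenger RNA had been sequenced from 4T1 cells, a mouse mammary carcinoma line, in 2 groups of 1 library each. The control group was 4T1 cells whose treatment label reads control 4T1. The co-culture group was 4T1 cells that had spent 3 days in the lower chamber of a transwell with M2 macrophages, the alternatively activated form, in the upper chamber. Neither the source of the macrophages nor the upper chamber of the control culture is described in the labels. The title of the co-culture library reads M2_4T2, whereas its treatment label and its column in the table name 4T1, and the latter were followed.

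In the integrated stress response, kinases that sense ER stress, amino acid shortage, haem shortage or double-stranded RNA phosphorylate the initiation factor eIF2. General translation then slows, while the Atf4 message, which carries short upstream reading frames, is translated more. ATF4 binds composite C/EBP-ATF elements as a dimer with C/EBP proteins and raises genes of amino acid supply, together with Ddit3, Atf3, Trib3 and Chac1. The response is also self-limiting, because PPP1R15A (GADD34) directs protein phosphatase 1 to eIF2 and TRIB3 binds and restrains ATF4. Tumour cells often run this response at a raised level, since their demand for protein synthesis is high.

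The promoters show which of these genes carry letters that ATF4 dimers are known to bind. RefSeq promoter windows (GRCm38.p6), 250 bases before to 50 after each start site, were present for all 10 genes, as 11 windows because Atf5 has a pair. Both strands were searched for TGATGNAA, the core of the C/EBP-ATF element, and TTGCATCA, whose matches are a subset of it read on the opposite strand. The search also covered TGACGTCA, the cAMP response element, and the ER stress response element bound by ATF6, which is CCAAT and CCACG with any 9 bases between them. The sequences below are the 4 with a TGATGNAA match, the 1 with the cAMP response element and, as the gene with the lowest ratio of the 10, Ddit3. Capitals mark the match, and each stretch is cut to leave out annotated UTRs, or to 30 bases around the site where the site lies in one or past the start site.
Atf3, chr1:191183341-191183583, minus strand: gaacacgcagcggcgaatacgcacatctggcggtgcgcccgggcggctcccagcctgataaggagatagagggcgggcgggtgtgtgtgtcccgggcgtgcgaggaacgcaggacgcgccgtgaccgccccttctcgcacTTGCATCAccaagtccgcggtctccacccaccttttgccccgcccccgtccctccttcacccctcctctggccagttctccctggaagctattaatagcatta
Chac1, chr2:119350992-119351228, plus strand: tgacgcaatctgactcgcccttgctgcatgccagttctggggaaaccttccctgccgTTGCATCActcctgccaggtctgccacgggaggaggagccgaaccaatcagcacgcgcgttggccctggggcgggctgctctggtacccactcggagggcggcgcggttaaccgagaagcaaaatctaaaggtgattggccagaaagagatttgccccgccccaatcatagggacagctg
Nupr1, chr7:126625562-126625591, minus strand: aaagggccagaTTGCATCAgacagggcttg
Trib3, chr2:152344028-152344057, minus strand: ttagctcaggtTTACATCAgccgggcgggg
Ppp1r15a, chr7:45526269-45526329, minus strand: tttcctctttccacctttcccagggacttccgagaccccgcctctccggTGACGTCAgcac
Ddit3, chr10:127290543-127290773, plus strand: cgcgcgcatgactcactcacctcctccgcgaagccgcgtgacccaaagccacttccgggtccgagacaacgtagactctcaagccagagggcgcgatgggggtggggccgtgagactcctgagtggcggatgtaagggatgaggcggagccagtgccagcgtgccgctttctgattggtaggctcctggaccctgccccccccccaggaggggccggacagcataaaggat

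The TGATGNAA core was present in the windows of 4 of the 10 genes, namely Atf3, Chac1, Nupr1 and Trib3, and in 3.97% of all 32851 windows. Counted by gene, it was in 2.39% of the 8443 detected genes that had a window. In Atf3 and in Nupr1 the match began 110 bases before the RefSeq start site, and in Chac1 it began 193 bases before it. These 3 genes held the exact letters TTGCATCA, which 0.895% of all windows hold. In Trib3 the match began 14 bases after the start site. The cAMP response element was in the Ppp1r15a window, 12 bases before the start site. It was in 1.79% of all windows and in 3.80% of the detected genes that had one. None of these 4 motifs was matched in the windows of Atf4, Atf5, Ddit3, Cebpb and Cebpg, and the ER stress response element was matched in none of the 10 genes and in 0.119% of all windows. A match is a run of letters in a fixed window and not a measured binding site, and elements outside the window were not searched.

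**Figure D1:**
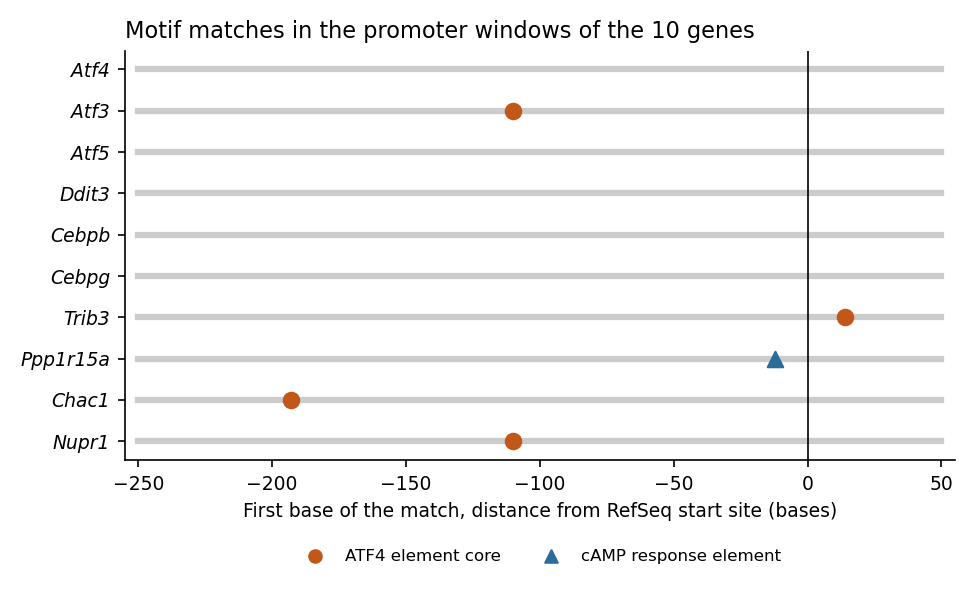
Position of motif matches in the promoter windows of the 10 genes, with the distance of the first base of each match from the RefSeq start site on the horizontal axis (bases) and 1 line per gene, the pair of Atf5 windows being laid over each other. Circles mark TGATGNAA, the ATF4 element core, and triangles mark the cAMP response element; 5 of the 10 genes had a match.

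All 10 genes had lower values in co-culture, whereas 35.4% of all detected genes did. By the 2-fold rule, a log2 ratio of (co-culture TPM + 1) to (control TPM + 1) of -1 or below, 9 of the 10 were lower and none was higher, against 2.14% of detected genes lower and 4.95% higher. The rule that named the genes used this contrast, so the counts are printed beside the background and nothing is read from them. The median log2 ratio of the 10 genes was -2.21, and the median of all detected genes was 0.17. Over all detected genes, 557 were 2-fold higher and 241 were 2-fold lower, and 313 and 379 were so when the libraries were scaled by an unweighted TMM factor, which shifts log2 ratios by 0.22. The median of the 10 genes was then -2.41 and that of all detected genes -0.03. Summed over the 10 genes, the level was 2185 TPM in the control library and 419 TPM in the co-culture library. TPM is a length-normalised share of each library's transcripts, so levels can be compared between genes, but less RNA per cell and fewer cells with the RNA cannot be told apart in bulk samples. With 1 library per group there was no replicate error and no test, and every difference is between these 2 libraries.

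**Figure D2:**
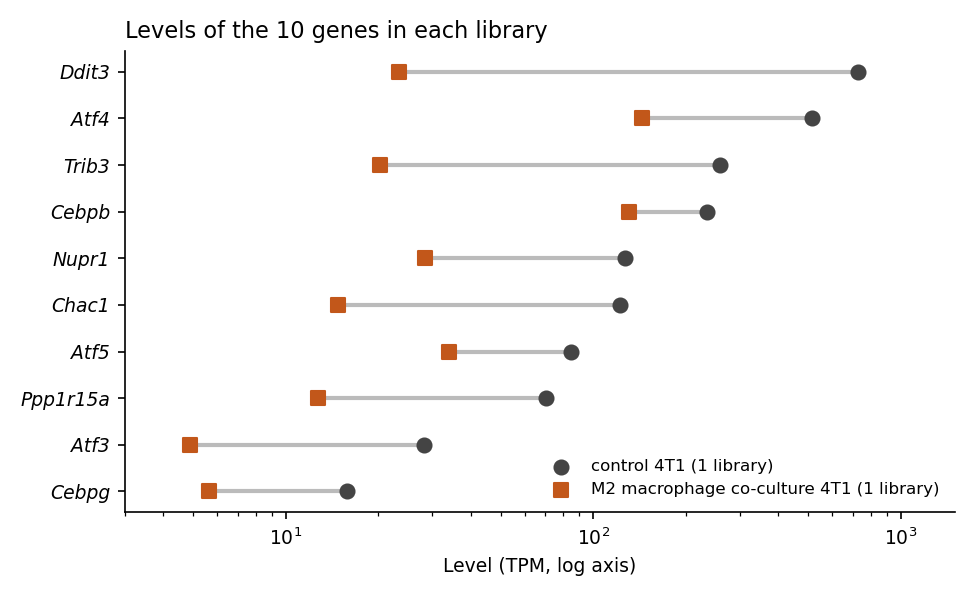
Level of each of the 10 genes (TPM, log axis) in the control library (circles) and the co-culture library (squares), with 1 library per group and no error bars. Every gene lay lower in co-culture, from Ddit3 (728 TPM against 23.4 TPM) to Cebpb (235 TPM against 131 TPM).

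The transcription factors at the head of the response differed by unequal amounts. Atf4 (ENSMUSG00000042406; chromosome 15, 80255184 to 80257541, plus strand), the central activator, had 514 TPM in the control library and 144 TPM in the co-culture library. It was therefore 3.57-fold lower in co-culture, with a log2 ratio of -1.83, and it stayed above the level of 92.6% of detected genes there. Ddit3 (ENSMUSG00000025408; chromosome 10, 127290774 to 127296288, plus strand) encodes CHOP, a factor linked to cell death under unresolved ER stress. It had 728 TPM in the control library and 23.4 TPM in the co-culture library, a 31.2-fold lower level. Ddit3 was thus the most abundant of the 10 genes in the control library, where it ranked 205th in level among all Ensembl rows, and in co-culture it ranked 4385th. Its level was 1.42 times that of Atf4 in the control library and 0.16 times in co-culture.

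Among the 1139 detected genes with at least 100 TPM in the control library, Ddit3 had the lowest log2 ratio, -4.90. In that order Trib3 was the third and Chac1 the fourth, behind the ribosomal protein pseudogene Rpl35a-ps4. Ddit3, Trib3 and Chac1 passed this cut only by their control level. The set was also chosen on this contrast, so the order is a description and nothing is read from it. When genes with a mean level of 5 TPM or more were ranked, 4 had a lower ratio than Ddit3. These were Poln, which encodes a DNA polymerase, with 59.9 TPM in the control library and 0.49 TPM in co-culture, the small nucleolar RNA Snora23 and the pseudogenes Gm45665 and Gm12013, which were all listed at 0 in co-culture.

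Atf3 and Atf5 are bZIP factors that act with ATF4 or after it. Atf3 (ENSMUSG00000026628; chromosome 1, 191170296 to 191218039, minus strand), a stress-induced repressor, had 28.2 TPM in the control library and 4.88 TPM in co-culture. Its log2 ratio was -2.31, and it went from above 68.3% of detected genes in level to above 20.8%. Atf5 (ENSMUSG00000038539; chromosome 7, 44812256 to 44816658, minus strand), a factor whose translation is controlled much as that of Atf4, had 84.9 TPM in the control library and 33.9 TPM in co-culture. It was 2.51-fold lower, a smaller difference than that of Atf4 or Atf3.

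The C/EBP members, which pair with ATF4 and CHOP, had, together with Atf5, the smallest differences of the 10. Cebpb (ENSMUSG00000056501; chromosome 2, 167688915 to 167690418, plus strand) is an activator of inflammatory and differentiation genes. Its level was 235 TPM in the control library and 131 TPM in the co-culture library. With a log2 ratio of -0.84 it was the only one of the 10 within 2-fold, although the TMM factor moved it to -1.05. Cebpg (ENSMUSG00000056216; chromosome 7, 35046422 to 35056573, minus strand), which lacks an activation domain and pairs with ATF4, had 15.9 TPM in the control library and 5.63 TPM in the co-culture library (log2 ratio -1.35, or -0.97 with a pseudocount of 5). Cebpb thus exceeded Cebpg in level 14.8 times in the control library and 23.3 times in co-culture. The level of Cebpb was 0.32 times that of Ddit3 in the control library and 5.62 times in co-culture, so the order of these dimer partners was opposite in the 2 libraries.

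The feedback and effector genes included the lowest ratios after Ddit3. Trib3 (ENSMUSG00000032715; chromosome 2, 152337422 to 152344032, minus strand), the pseudokinase that restrains ATF4, had 259.5 TPM in the control library and 20.2 TPM in co-culture, a 12.8-fold lower level. Chac1 (ENSMUSG00000027313; chromosome 2, 119351229 to 119354381, plus strand), a glutathione-cleaving enzyme downstream of ATF4, had 122 TPM and 14.8 TPM in the same order, an 8.27-fold lower level. In the control library Trib3 lay above 95.8% of detected genes in level and Chac1 above 91.4%. In co-culture these shares were 56.7% and 48.2%, near the middle of the detected genes.

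Ppp1r15a (ENSMUSG00000040435; chromosome 7, 45522916 to 45526268, minus strand) encodes the stress-induced subunit of the eIF2 phosphatase. Its level was 70.3 TPM in the control library and 12.8 TPM in the co-culture library, which gives a log2 ratio of -2.37. Nupr1 (ENSMUSG00000030717; chromosome 7, 126623249 to 126630861, minus strand), a small stress-induced nuclear protein, had 127 TPM in the control library and 28.5 TPM in the co-culture library, which gives a log2 ratio of -2.11. Relative to Atf4 within the same library, the level of Nupr1 was 0.25 times in the control and 0.20 times in co-culture, and that of Ppp1r15a was 0.14 and 0.09 times. The corresponding values of Trib3 were 0.50 and 0.14 times, so the distance to Atf4 widened more for Trib3 than for Nupr1 or Ppp1r15a.

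The order of the levels also differed between libraries. In the control library it ran from Ddit3 through Atf4, Trib3, Cebpb, Nupr1, Chac1, Atf5, Ppp1r15a and Atf3 to Cebpg. In co-culture Atf4 was first, followed by Cebpb, Atf5, Nupr1, Ddit3, Trib3, Chac1, Ppp1r15a, Cebpg and Atf3. The neighbours Nupr1 and Chac1 in the control (127 TPM and 122 TPM), Atf4 and Cebpb in co-culture (144 TPM and 131 TPM), and Atf3 and Cebpg in co-culture (4.88 TPM and 5.63 TPM) lay close together, and without replicates their order cannot be tested. In log2 ratio, 7 of the 10 were among the 100 lowest of all detected genes, a set that holds 0.888% of them. Those outside it were Cebpg at position 133 from the lowest, Atf5 at 145 and Cebpb at 347.

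**Figure D3:**
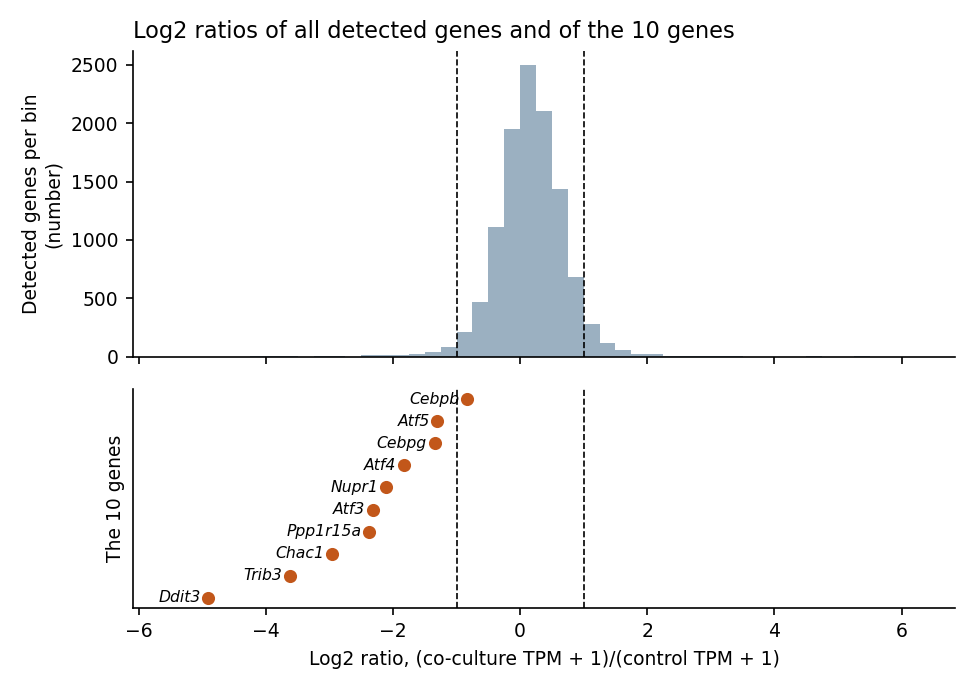
Distribution of log2 ratios over the 11258 detected genes (upper panel, number of genes per bin of the log2 ratio) and the log2 ratio of each of the 10 genes (lower panel, points); dashed lines mark 2-fold in either direction. The 10 genes run from -4.90 for Ddit3 to -0.84 for Cebpb, on the left side of a distribution whose median is 0.17.

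Paralogs of the feedback genes did not share their difference. Ppp1r15b, the constitutive eIF2 phosphatase subunit, had 13.8 TPM in the control library and 21.5 TPM in the co-culture library, so it was higher there (log2 ratio 0.61). The level of Ppp1r15a was 5.10 times that of Ppp1r15b in the control library and 0.59 times in co-culture. Trib1 and Trib2, pseudokinases that direct C/EBP proteins to degradation, were higher in co-culture, Trib1 at 17.2 TPM and 23.6 TPM and Trib2 at 3.48 TPM and 16.0 TPM. Trib3 exceeded Trib1 in level 15.1 times in the control library, and its level was 0.86 times that of Trib1 in co-culture. Chac2, the constitutive glutathione-cleaving relative, had 4.89 TPM in the control library and 9.09 TPM in co-culture, so Chac1 exceeded it 25.0 times and 1.63 times. Among the other C/EBP genes, Cebpd was lower like Cebpg, with 9.23 TPM and 2.99 TPM (log2 ratio -1.36), and Cebpa and Cebpe were listed at 0 in both libraries. Of the 5 paralogs detected among 8, 1 was at least 2-fold lower, 1 was at least 2-fold higher, and the median log2 ratio was 0.61. Of all 11258 detected genes, 2.14% were at least 2-fold lower and 4.95% at least 2-fold higher. A higher value in co-culture was the more common direction, found in 7257 of them.

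**Figure D4:**
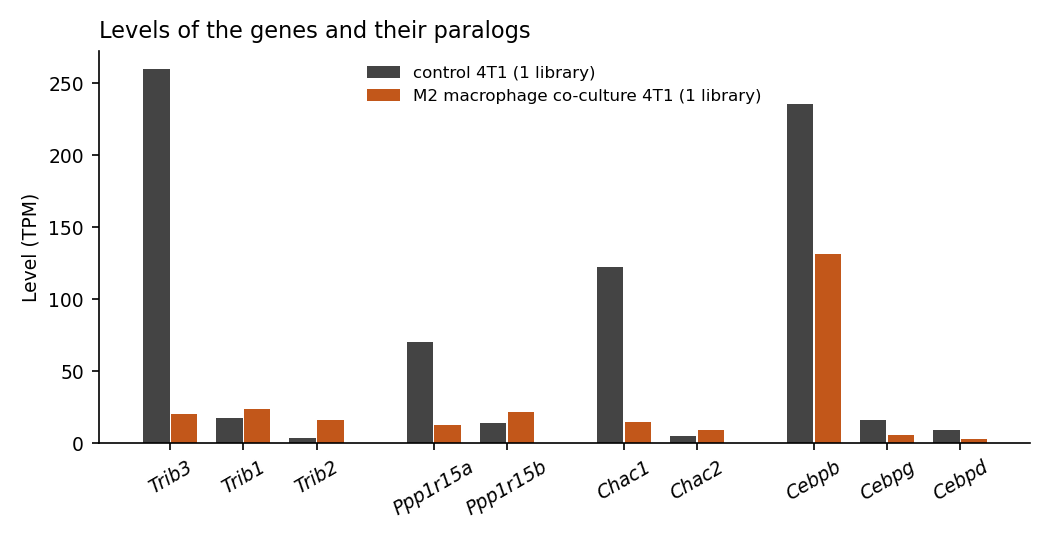
Level (TPM, linear axis from 0) of Trib3, Ppp1r15a, Chac1, Cebpb and Cebpg beside their detected paralogs in the control library (dark bars) and the co-culture library (orange bars), 1 library each and no error bars. Trib3, Ppp1r15a and Chac1 are the taller bars of their families in the control, while Trib1, Trib2, Ppp1r15b and Chac2 are higher in co-culture than in the control.

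The wider bZIP families were mostly within 2-fold. For comparison, 2.14% of all detected genes were lower by 2-fold or more and 4.95% were higher by as much. Of 13 detected ATF and CREB genes outside the 10, 1 was lower by 2-fold or more and 0 were higher by as much. Their median log2 ratio was 0.07. The lower gene was Jdp2, a repressor related to Atf3, with 49.5 TPM in the control library and 21.5 TPM in co-culture. Creb1, Creb5 and Crem, which encode cAMP-responsive factors, had log2 ratios of 0.75, 0.61 and 0.59. Of 14 other detected bZIP genes, 1 was lower by 2-fold or more and 0 were higher by as much. Their median was -0.01. That gene was Nfe2l1, which controls proteasome genes, at 192 TPM and 85.3 TPM. Jun, an AP-1 subunit, had a log2 ratio of 0.90, Maff 0.66, and Xbp1, whose message is spliced by IRE1, -0.87. Xbp1 is counted again in the list of IRE1 and ATF6 genes below.

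The transcripts of the machinery that governs eIF2 were mostly within 2-fold, apart from Ppp1r15a. Ppp1r15a (log2 ratio -2.37), which is among the 10 genes, and its paralog Ppp1r15b (0.61) are not in this list. Of 18 other genes of the eIF2 kinases, eIF2, its exchange factor eIF2B and the phosphatase, none was at least 2-fold lower and 1 was 2-fold higher. Over all detected genes these shares were 2.14% and 4.95%. The median log2 ratio of the 18 genes was -0.03. Eif2ak3 (PERK, the ER stress kinase) had 6.58 TPM in the control library and 5.60 TPM in co-culture. Eif2ak4 (GCN2, the amino acid shortage kinase) had 6.11 TPM and 7.91 TPM, and Eif2ak1 (HRI, the haem-regulated kinase) had 8.51 TPM and 8.18 TPM. Eif2ak2 (PKR, the double-stranded RNA kinase) had 2.98 TPM and 6.96 TPM, a log2 ratio exactly at the threshold of 1, and was the gene counted as higher. Dnajc3, an inhibitor of PERK, had a log2 ratio of -0.79, and the eIF2B subunits Eif2b3 and Eif2b4 had -0.71 and -0.63. RNA levels do not measure the phosphorylation of eIF2, which was not assayed.

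Genes for translation of the Atf4 message and turnover of its protein were also near the background. None of 12 was at least 2-fold lower and 1 was at least 2-fold higher, beside 2.14% and 4.95% of all detected genes. The median was 0.17, as over all detected genes. The higher gene was Egln3, a prolyl hydroxylase that binds ATF4, with 61.6 TPM in the control library and 155 TPM in co-culture. Its relative Egln1 had a log2 ratio of 0.82. Mcts1, a reinitiation factor, had 0.60, and the ubiquitin ligase subunit Skp1a had 0.50.

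Known targets of ATF4 in amino acid supply were lower with the 10 genes. Of 30 such genes 29 were detected. In co-culture 18 of these were lower by 2-fold or more and 0 were higher by as much, beside 2.14% of all detected genes lower. Their median log2 ratio was -1.21. Slc6a9, a glycine transporter, had 45.2 TPM in the control library and 7.60 TPM in co-culture. Mthfd2, of mitochondrial one-carbon metabolism, had 152 TPM and 40.9 TPM. Aars, the alanyl-tRNA synthetase, had 147 TPM and 46.1 TPM, and Pck2, the mitochondrial PEP carboxykinase, had 93.4 TPM and 30.1 TPM. TGATGNAA was in the windows of 8 of the 23 genes of this list that had one, among them Asns, Slc7a11 and Aars. It was in 2.39% of the detected genes that had a window. The list was written from known ATF4 targets, so its count of matches is a description only. Slc7a11 held 2 matches, which began 66 and 47 bases before the start site, and the match of Asns began 23 bases before it.

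Other stress targets of ATF4 and CHOP differed in both directions. Of 16 genes 12 were detected, of which 5 were lower by 2-fold or more and 0 were higher by as much, beside 2.14% and 4.95% of all detected genes. Their median was -0.32. Sqstm1, the autophagy receptor p62, had 1494 TPM in the control library and 453 TPM in co-culture. Bbc3 (PUMA, a pro-death BH3 protein) had 23.3 TPM and 8.26 TPM, Sesn2 (an mTORC1 inhibitor) had 12.7 TPM and 4.27 TPM, and Car6 (a carbonic anhydrase induced by CHOP) had 2.02 TPM and 0.20 TPM. Ero1l, an ER oxidase often described as a CHOP target, had 87.4 TPM and 159 TPM, and the death receptor gene Tnfrsf10b had 23.2 TPM and 24.8 TPM. These 2 genes therefore did not follow Ddit3, and they are named here after their values were seen. Gdf15, Fgf21, Vldlr and Adm2 were not detected.

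Transcripts listed under the other arms of the ER stress response, governed by IRE1 and ATF6, were lower as well. RNA levels do not measure the activity of these arms, which was not assayed. In that list 12 of 12 genes were below 0 in log2 ratio, beside 35.4% of all detected genes. The 2-fold rule was reached by 6 of the 12 and not by the other 6, beside 2.14% of all detected genes. The median was -1.07. Herpud1, of ER-associated degradation, had 347 TPM in the control library and 43.7 TPM in co-culture, and Creld2 had 226 TPM and 58.8 TPM. The chaperone genes Hspa5 and Calr had log2 ratios of -1.66 and -1.48. The ER stress response element was in the windows of 4 of the 11 genes of this list that had one, namely Hspa5, Calr, Creld2 and Hsp90b1. It was in 0.166% of the detected genes that had a window. This list too was chosen by pathway, so the count is a description only. The Herpud1 window held TTGCATCA, beginning 112 bases before the start site.

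**Figure D5:**
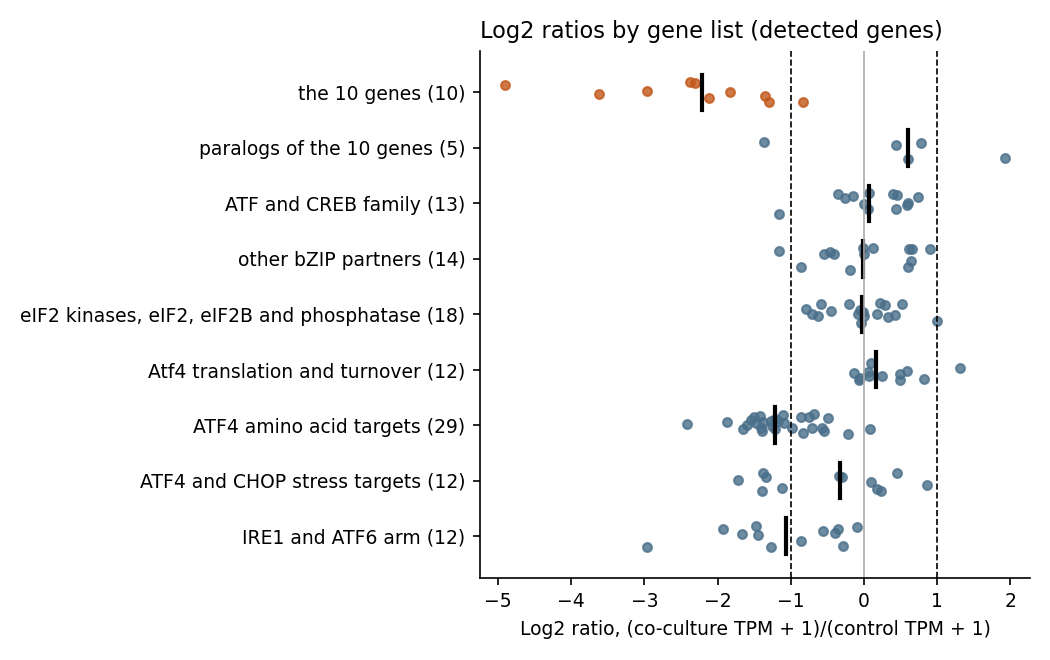
Log2 ratio of each detected gene by list (points, spread vertically at random; the number of genes in parentheses), with the list median as a black bar and dashed lines at 2-fold. The 10 genes (median -2.21), the amino acid targets (-1.21) and the IRE1 and ATF6 genes (-1.07) lie left of 0, while the eIF2 list (-0.03) and the Atf4 translation list (0.17) lie near 0.

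The genes whose pair of levels was most like that of Ddit3 or Atf4 were found by Euclidean distance in the 2 values of log2(TPM + 1), over these 2 libraries only. Nearest to Ddit3 were Rpl35a-ps4 (distance 0.52), Herpud1 (1.38) and Sdf2l1 (2.01). No detected gene other than that pseudogene lay within a distance of 1 of Ddit3. Nearest to Atf4 were Sars (0.33), the noncoding 1110038B12Rik (0.40) and Shmt2 (0.48). Sars encodes seryl-tRNA synthetase and had 468 TPM in the control library and 178 TPM in co-culture.

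Several of the 10 genes overlap others in the annotation, and whether the libraries kept strand is not stated. Cebpb shares 908 bases with Tmem189 on the opposite strand, which had 25.1 TPM in the control library and 32.02 TPM in co-culture, opposite in direction to Cebpb. Atf5 shares 571 bases with Nup62 (79.3 TPM and 66.1 TPM), and Ddit3 shares 68 bases with Mars (110 TPM and 78.3 TPM), each on the opposite strand. Tulp2, which shares 717 bases with Ppp1r15a, was listed at 0 in both libraries. A search of the longest coding transcript of each of the 10 genes against all GENCODE M21 transcripts found a stretch of at least 300 bases at 85% identity or more in another gene for 1 of them, Cebpb, and that gene was Tmem189. The part of shared reads in these values was not tested.

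Markers of macrophages were nearly absent from both libraries. Of 20 markers 11 were at 0 in both, among them Ptprc, Adgre1 and Tyrobp, and apart from Cd68 and Cd14 the other 18 summed to 0.28 TPM in the control library and 0.46 TPM in co-culture. Cd68, a lysosomal protein gene, had 57.7 TPM and 27.8 TPM, and Cd14 had 8.87 TPM and 12.4 TPM. All 20 together summed to 66.9 TPM in the control library and 40.6 TPM in co-culture. Of 8 epithelial markers 5 were detected, and all 5 were higher in co-culture, 1 of them by 2-fold or more. Of all 11258 detected genes, 7257 were higher in co-culture, and 4.95% were so by 2-fold or more. The keratin genes Krt8 and Krt18 had 548 TPM and 439 TPM in the control library, and 630.4 TPM and 484 TPM in co-culture. Krt7 had 15.9 TPM and 18.3 TPM, and the junction gene Cldn3 had 8.14 TPM and 14.1 TPM. Krt19 was near 0 in the control library, at 0.18 TPM, and reached 2.64 TPM in co-culture (log2 ratio 1.63). Epcam was listed at 0 in both libraries, Cdh1 had 0.04 TPM and 0.01 TPM, and Cldn4 had 0.03 TPM and 0.12 TPM. Sequencing depth cannot be read from TPM.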

How the data were processed

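RNA sequencing of 2 libraries, 1 per group, was analysed from 1 table. The authors deposited TPM values per gene, and HISAT2 2.1.0, RSEM 1.2.31 and the build GRCm38.p5 appear, without roles, in the submitters' processing notes. No source used here gives the annotation release, strandedness or filters. TPM keeps no depth, so no counting interval was computed. Of 52796 rows, 51912 had Ensembl identifiers, of which 51633 matched a GENCODE M21 symbol, and the 884 assembled loci were not used here. Log2 ratios were computed with a pseudocount of 1, which understates differences of low genes, over detected genes (mean level of 1 TPM or more). With 1 library per group no test was made. The 10 genes, the lists and the motifs were chosen with earlier results of these data known. From each pathway list up to 4 detected genes with the largest absolute ratio were named. The detected marker genes, all detected paralogs and the 4 kinases were named too. Also named were the 3 genes outside the 10 nearest to Ddit3 and to Atf4, and those with ratios below that of Ddit3. Other genes were named after their values were seen. Promoters came from RefSeq on GRCm38.p6 and gene positions from GENCODE M21 on GRCm38. Transcripts were compared with BLAST 2.17.0, and the rest was computed in Python 3.11.15. Ratios and motif searches were tested on simulated data. Protein sequences were not used here. Alternatives were pseudocounts of 0.1 and 5, no minimum, a minimum of 10 for the mean level, protein-coding genes only, a log2 threshold of 2, 3 other scalings and a mean over the 10 genes.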

Additional observations from a re-analysis of the deposited data

How the results depend on the processing

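All 10 genes kept a log2 ratio below 0 in each of 90 combinations of gene and alternative, and 85 kept their side of the threshold. The exceptions were Cebpb, which reached -1.05 with the unweighted TMM factor, Cebpg, which was at -0.97 with a pseudocount of 5, and Atf4, Atf5 and Cebpg, which did not reach a log2 threshold of 2. Dropping the minimum, the minimum of 10 TPM, protein-coding genes only and the log2 threshold of 2 leave the ratio of a gene unchanged. The sign of each ratio was thus fixed in advance under these alternatives. A pseudocount changes the size of a ratio but cannot change its sign. Only the 3 scalings could have altered the sign. Each of them lowered co-culture values relative to the control, by log2 shifts of 0.12, 0.22 and 0.01. The count of 90 therefore adds little to the reported signs. The number of the 10 genes past the threshold was 8 with a pseudocount of 5, 10 with the TMM factor, 6 at the log2 threshold of 2 and 9 otherwise. Their median ranged from -1.89 with a pseudocount of 5 to -2.41 with the TMM factor. Over all detected genes the number 2-fold lower was 241, and it was 129 with a pseudocount of 5, 120 with a minimum mean of 10 TPM, 379 with the TMM factor, 155 for protein-coding genes and 66 at the log2 threshold of 2. The number 2-fold higher was 557, and under the pseudocounts of 0.1 and 5, the minimum of 10 TPM, the TMM factor and the log2 threshold of 2 it was 886, 199, 244, 313 and 75. The stress target list had 3 genes 2-fold lower, in place of 5, with a pseudocount of 5 and with the minimum of 10 TPM, and 0 past the log2 threshold of 2. The 1 lower paralog, Cebpd, was no longer counted under any of these 3 alternatives. The 1 lower gene each of the ATF and CREB list and of the other bZIP list did not reach the log2 threshold of 2, and the latter list had 2 lower genes with the TMM factor. The lists of amino acid targets and of IRE1 and ATF6 genes each had 1 gene past the log2 threshold of 2, in place of 18 and 6 past that of 1. No paired analysis was possible because each group had 1 library. The depth of the libraries is unknown, so the precision of low values such as those of Atf3 and Cebpg in co-culture cannot be given.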

Other observations

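The TGATGNAA core was also counted by ratio class over the detected genes that had a RefSeq promoter window. It was in the windows of 13 of the 130 genes at least 2-fold lower in co-culture, the 10 genes being left out. Genes of the lists above were kept, and Asns, Slc7a11, Aars, Slc1a4, Pck2, Herpud1 and Jdp2 were among these 13. The core was in 179 of the 7962 genes within 2-fold (2.25%) and in 6 of the 342 genes at least 2-fold higher (1.75%). The exact letters TTGCATCA were in 8 of the 130 lower genes, in 39 of the 7962 and in 0 of the 342. Slc7a11, Aars, Slc1a4, Herpud1 and Jdp2 were among these 8. The ER stress response element was in 5 of the 130 lower genes (3.85%), in 9 of the 7962 (0.113%) and in 0 of the 342. Hspa5, Calr and Creld2, of the IRE1 and ATF6 list, were among these 5. The cAMP response element, in contrast, was in 3.85%, 3.82% and 3.22% of these classes. These shares are descriptions of fixed windows and were not tested.

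Jdp2, whose log2 ratio of -1.16 was the lowest among the ATF and CREB genes outside the set, also held TGATGNAA, beginning 33 bases before a RefSeq start site. Of the 10 genes, 4 lie on chromosome 7 and 3 on chromosome 2. All but Atf3, which spans 47744 bases, span less than 11000 bases. The same shares were not computed over all detected genes, so nothing is read from these counts.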
